A study of Homo sapiens with 9 samples.

Results

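Cholesterol enters steroid synthesis through a short chain of proteins, and the genes of 7 of them are described here: SCARB1, STARD3, STAR, TSPO, CYP11A1, FDX1 and FDXR. They were taken by symbol from a list of names that was drawn up with earlier results of these data known. They are 7 of the 60671 genes in the count files. All 7 passed the filter on low counts. RNA was sequenced from H295R cells, a human line from an adrenocortical carcinoma that makes steroids, grown untreated to 80% confluency in medium with serum substitute and insulin-containing supplement. There were 3 libraries each of cells labelled WT, of cells labelled SGPL1 KO and of cells labelled SGPL1 OE (overexpression). Biological replication is stated in the design text. The kind of edit, the number of clones behind each line, separate cultures and the promoter of the added SGPL1 are not named in the labels. Each p below therefore reflects variation among the 9 libraries, some of which may be technical.

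SGPL1 encodes sphingosine-1-phosphate lyase, which ends sphingolipid breakdown, and the title of the series ties it to metabolic rate in this tumour. In the adrenal cortex, cholesterol arrives mainly in lipoproteins. SCARB1 takes up cholesteryl esters from high-density lipoprotein, and STARD3 transfers sterol at late endosomes. STAR carries cholesterol from the outer to the inner mitochondrial membrane, the acutely controlled step. TSPO is a cholesterol-binding protein of the outer membrane. On the inner membrane CYP11A1 cuts the side chain of cholesterol to give pregnenolone, with electrons that FDXR takes from NADPH and FDX1 (adrenodoxin) delivers.

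Library totals ran from 8006873 to 10895080 counts, and 14150 genes were tested. SGPL1 itself ranged over 83.4 to 102 CPM (counts scaled to a common library size) in WT, 43.9 to 53.8 CPM in KO, and for OE 81.3 to 101 CPM, so its counts were lower in the KO libraries and not higher in the libraries labelled OE (log2 fold change against WT -0.01 ± 0.14, edgeR adjusted p = 0.966). Directions for OE are therefore directions between labels. Of 10 adrenocortical marker genes 9 were tested, and their summed level was 3600 to 4020 CPM in WT, 6320 to 7900 CPM in KO and 4240 to 4790 CPM in OE. Most of each sum was DLK1 alone (2595, 5796 and 3037 CPM on average in WT, KO and OE). The marker lists of adrenal medulla, fibroblasts, endothelium, leukocytes and epithelium had at most 34.6 CPM summed in any library, and TH, DBH, PNMT and PTPRC were at 0 counts in all 9. In a chi-square comparison of counts within groups, WT replicate 2 and OE replicate 2 were the most distant libraries (11.2 to 17.3 per degree of freedom, against 5.86 and 4.38 between the remaining libraries of those groups), and KO replicates 1 and 3 differed by 12.6.

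Levels of different genes were compared per length of gene model. SCARB1 had 140 ± 15.1 RPKM (CPM per kilobase, SD, n = 3) and CYP11A1 131.4 ± 17.5 RPKM in WT, and their libraries overlapped. FDXR followed at 97.1 ± 15.2, STAR at 71.6 ± 4.42 and FDX1 at 52.0 ± 8.24 RPKM, with no overlap between neighbours in that order. STARD3 was far below these at 11.3 ± 1.28 RPKM, and TSPO lower still at 2.25 ± 0.853 RPKM. As a scale, 98.1% of the tested genes lay below SCARB1 in WT, 93.5% below FDX1, 71.3% below STARD3 and 33.9% below TSPO.

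The order was not the same in the other lines. In KO, STAR (122 ± 12.8 RPKM) stood above the mean of FDXR (109.8 ± 20 RPKM) and overlapped both FDXR and CYP11A1 (143.8 ± 12.5 RPKM). In OE, FDXR (158.3 ± 34.6 RPKM) overlapped CYP11A1 (172 ± 26.4 RPKM), while STAR (87.1 ± 2.6 RPKM) lay below both in all libraries. SCARB1 was the highest of the 7 in both lines, at 232 ± 16.1 RPKM in KO and 250 ± 27.7 RPKM in OE. The length used is that of all annotated exons joined, so genes with long rarely used exons are understated.

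**Figure D1:**
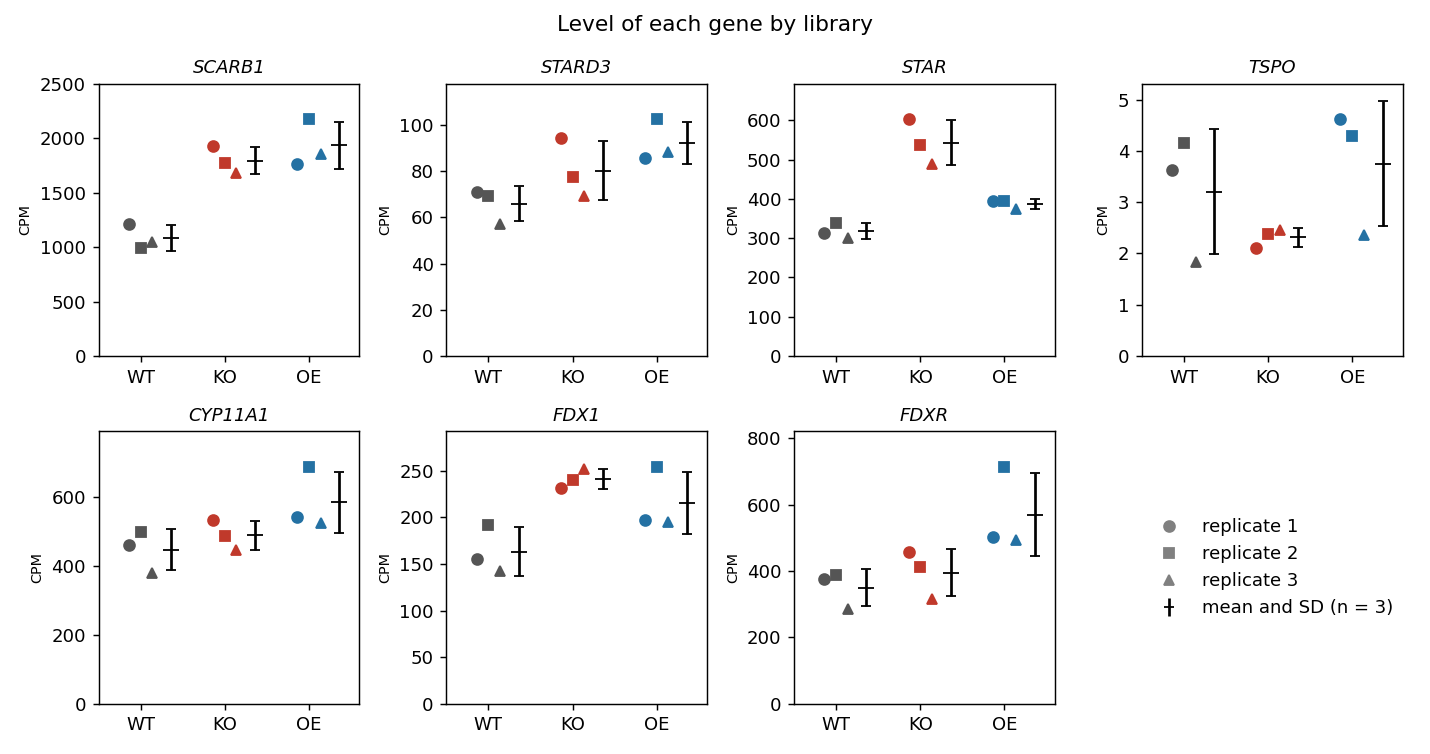
CPM of each gene (vertical axis, from 0, own scale per panel) in the 3 libraries of each group, with symbols for the replicates and the mean and SD (n = 3) in black. SCARB1, STAR and FDX1 are above all WT libraries in all KO libraries, CYP11A1 and FDXR are highest in OE replicate 2, and TSPO stays under 5 CPM.

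Against WT, 3 of the 7 genes rose in KO (STAR, SCARB1 and FDX1) and none fell, and 5 of the 7 rose in OE (SCARB1, FDXR, STARD3, FDX1 and CYP11A1) and none fell. A gene was called at an edgeR adjusted p under 0.05 over all genes tested. Of all genes, 18.8% were called in either direction in KO and 20.7% in OE, with 9.16% and 9.65% higher. In KO 9.60% were called lower. The groups did not overlap for 3 members in KO and for 6 in OE, beside 35.2% and 36.4% of all genes. The median log2 fold change of the 7 was 0.28 in KO and 0.40 in OE, where over all tested genes it was -0.007 and -0.01. Both comparisons share the WT libraries, so the high values in both are not independent. Between OE and KO, FDXR was higher and STAR lower in OE, and 5 genes did not pass, while of all genes 39.7% were called, 19.0% higher and 20.6% lower. These 2 genes were also the ones without overlap there, beside 51.7% of all genes. In bulk RNA, fewer cells of a kind and less RNA per cell cannot be told apart.

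**Figure D2:**
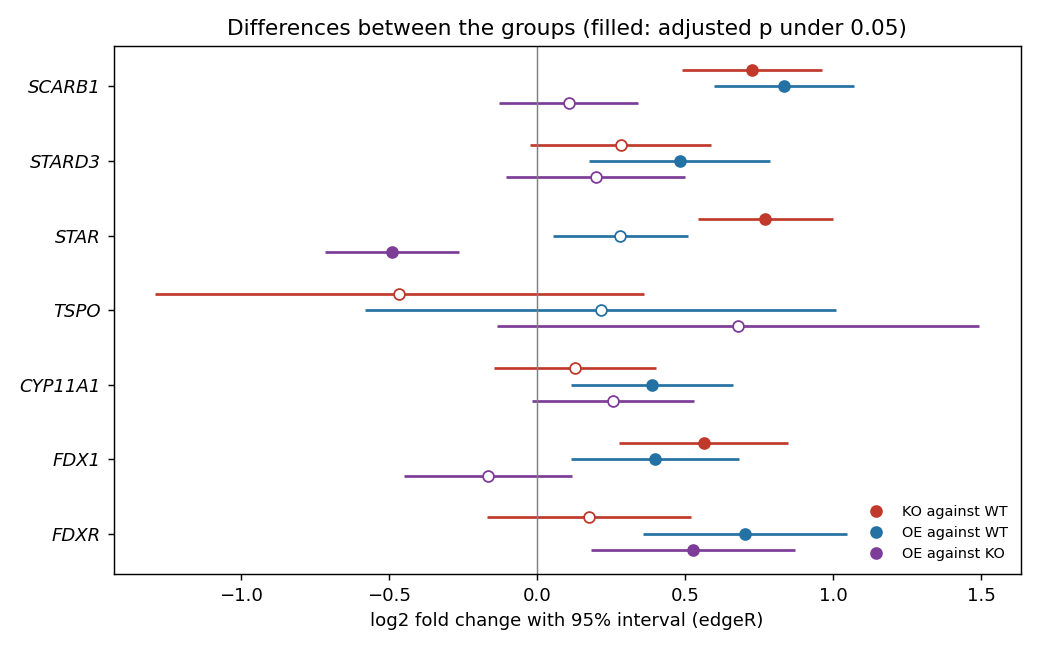
Log2 fold change (horizontal axis) of each gene with its 95% interval for the 3 comparisons of groups, filled where the edgeR adjusted p is under 0.05. SCARB1 lies near 0.73 and 0.83 against WT in KO and OE, STAR is high in KO (0.77), and FDXR is high in OE (0.70).

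The 5 calls in OE were unequally stable. SCARB1 and FDXR were called under every alternative tried, but with WT replicate 1, WT replicate 3 or OE replicate 2 left out they were the 2 genes called, and without KO replicate 2, which bears on the shared spread, there were 3. With library totals alone as scaling, the same 2 were called, and the median of all genes was then -0.129 rather than -0.01. In KO, STAR, SCARB1 and FDX1 were called under all 21 alternatives. Without KO replicate 3 or without OE replicate 2, OE against KO kept 1 call, that of STAR.

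SCARB1 (ENSG00000073060, chromosome 12, 124776856 to 124882668, GRCh38, minus strand) encodes the receptor that takes cholesteryl ester from high-density lipoprotein. It had 1216, 990.4 and 1052 CPM in WT, 1929, 1777 and 1683 CPM in KO, and 1770, 2178 and 1859 CPM in OE. All KO and all OE libraries were above all WT libraries, and KO and OE overlapped. The log2 fold change was 0.73 ± 0.11 in KO (edgeR adjusted p = 0.000201) and 0.83 ± 0.11 in OE (edgeR adjusted p = 0.000252), a 1.65-fold and a 1.78-fold level. Between OE and KO it was 0.11 ± 0.11 (edgeR adjusted p = 0.468, 95% interval -0.13 to 0.34). At 7741 nt it is the longest of the 7, and long genes had lower counts in OE: the trend over all genes at its length was -0.21 for OE against WT. With an offset for gene length the difference between OE and KO was 0.31 (edgeR adjusted p = 0.0357).

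STARD3 (ENSG00000131748, chromosome 17, 39637090 to 39664201, plus strand) encodes a late endosomal sterol carrier with the same lipid-binding fold as STAR. It had 71.01, 69.33 and 57.28 CPM in WT, 94.27, 77.26 and 69.09 CPM in KO, and 85.54, 102.5 and 88.31 CPM in OE. OE lay above WT without overlap, and KO overlapped both. The log2 fold change was 0.48 ± 0.14 in OE (edgeR adjusted p = 0.0265) and 0.28 ± 0.15 in KO (edgeR adjusted p = 0.195, 95% interval -0.02 to 0.59). OE against KO did not pass (0.20 ± 0.14, edgeR adjusted p = 0.287, 95% interval -0.10 to 0.50). The OE call was lost without WT replicate 1 (edgeR adjusted p = 0.0564), WT replicate 3 (0.132), OE replicate 2 (0.0787) or OE replicate 3 (0.0504).

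STAR (ENSG00000147465, chromosome 8, 38142700 to 38150992, minus strand), the carrier that brings cholesterol to CYP11A1, rose in KO. It had 314.2, 339.3 and 300.5 CPM in WT, 602.8, 537.2 and 489.5 CPM in KO, and 393.2, 393.7 and 373.5 CPM in OE. The 3 groups did not overlap at all, with KO at the top, OE between and WT lowest. The KO level was 1.71 times that of WT (0.77 ± 0.11, edgeR adjusted p = 8e-05). OE was 1.22 times WT (0.28 ± 0.11, edgeR adjusted p = 0.0712) and did not pass, although the groups did not overlap. It passed without WT replicate 2 (0.34, edgeR adjusted p = 0.0371). Between OE and KO the change was -0.49 ± 0.11 on the log2 scale (edgeR adjusted p = 0.00186), with OE the lower. Of the exon bases of STAR, 7.92% are shared with other genes, mostly with ASH2L on the opposite strand (338 bases), where reads of either were not counted.

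TSPO (ENSG00000100300, chromosome 22, 43151547 to 43163242, plus strand), long discussed as a partner of STAR at the outer mitochondrial membrane, was scarcely detected in these cells. It had 32, 34 and 16 counts in WT, 18, 22 and 23 counts in KO, and 42, 31 and 25 counts in OE, which is 1.84 to 4.62 CPM. The groups overlapped, and no comparison passed. The log2 fold change was -0.46 in KO (95% interval -1.29 to 0.36) and 0.22 in OE (95% interval -0.58 to 1.01). The interval in KO lies below the rise of STAR there (0.77), whereas the interval in OE includes a rise as large as that of SCARB1 (0.83), which could not be detected at these counts and this spread. No other annotated gene shares exon bases with it. TSPO2, its relative, had too few counts to be tested.

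CYP11A1, FDX1 and FDXR are the enzyme and its electron supply, and the stretches around their RefSeq starts are shown because the 3 proteins work as 1 electron chain. Each is 300 bases of GRCh38.p14, 250 before and 50 from the start on, read in the direction of the gene: CYP11A1 at chr15:74367597-74367896 (minus strand), FDX1 at chr11:110429698-110429997 (plus) and FDXR at chr17:74872945-74873244 (minus). Capitals mark matches on either strand to 4 motifs. The core of the site that NR5A1 binds was searched as AAGGTCA. The GC box, bound by SP1 and its relatives, was searched as GGGCGG. For the TATA box of the basal machinery the letters were TATAAA. For the core of the cAMP response element they were TGACGTC.
CYP11A1: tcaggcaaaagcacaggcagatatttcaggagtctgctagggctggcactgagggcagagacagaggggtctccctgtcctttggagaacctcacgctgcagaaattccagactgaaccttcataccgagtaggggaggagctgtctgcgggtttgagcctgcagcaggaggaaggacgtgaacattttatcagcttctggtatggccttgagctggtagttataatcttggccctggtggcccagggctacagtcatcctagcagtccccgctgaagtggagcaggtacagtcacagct
FDX1: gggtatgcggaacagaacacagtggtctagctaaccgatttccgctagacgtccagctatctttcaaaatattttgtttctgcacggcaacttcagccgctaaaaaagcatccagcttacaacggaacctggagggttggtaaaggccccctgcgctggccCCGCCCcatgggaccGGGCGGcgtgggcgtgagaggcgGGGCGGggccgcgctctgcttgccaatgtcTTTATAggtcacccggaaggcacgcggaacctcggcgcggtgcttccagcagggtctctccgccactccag
FDXR: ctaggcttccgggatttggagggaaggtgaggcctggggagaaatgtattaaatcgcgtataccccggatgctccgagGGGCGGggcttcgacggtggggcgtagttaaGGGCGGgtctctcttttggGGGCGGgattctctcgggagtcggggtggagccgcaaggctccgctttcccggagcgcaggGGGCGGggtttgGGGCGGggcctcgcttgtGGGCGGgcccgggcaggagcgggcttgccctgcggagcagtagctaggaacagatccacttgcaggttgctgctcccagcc
The FDXR window held 6 GC boxes (a second RefSeq window of FDXR, not shown, held none) and the FDX1 window 3, with 1 TATA match on its opposite strand that began 21 bases before the start. The CYP11A1 window held none of the 4 motifs, which says only that these letters do not occur there. It was also the poorest in G and C, at 54.7% against 60.3% for FDX1 and 66.3% for FDXR. Over all 35116 RefSeq windows, 45.0% held a GC box, 11.5% a TATA box, 3.92% the NR5A1 core and 3.45% the cAMP core. STARD3 and TSPO also had GC boxes in their windows, and no other motif of the 4.

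CYP11A1 (ENSG00000140459, chromosome 15, 74337759 to 74367646), the side-chain cleavage enzyme, passed in OE and not in KO. It had 461.4, 496.9 and 380.6 CPM in WT, 532, 486.5 and 447.1 CPM in KO, and 541.6, 687.3 and 523.5 CPM in OE. KO overlapped WT, and OE did not. In KO the log2 fold change was 0.13 ± 0.13 (edgeR adjusted p = 0.545, 95% interval -0.14 to 0.40), and in OE it was 0.39 ± 0.13 (edgeR adjusted p = 0.0435). The difference of OE from KO, 0.26 ± 0.13, did not pass (edgeR adjusted p = 0.125, 95% interval -0.02 to 0.53). The OE call was lost without WT replicate 1 (edgeR adjusted p = 0.101), WT replicate 3 (0.201), KO replicate 2 (0.069) or OE replicate 2 (0.147). Of its exon bases, 27.0% are shared with 2 genes on the opposite strand, which had at most 24 counts, and reads there were left out.

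FDX1 (ENSG00000137714, chromosome 11, 110429948 to 110464884), the small iron-sulfur protein that hands electrons to CYP11A1, was higher in both lines. It had 155.6, 192.2 and 142.2 CPM in WT, 231.6, 239.9 and 252.3 CPM in KO, and 197.1, 254.2 and 194.8 CPM in OE. Both lines lay above WT, and OE overlapped KO. The log2 fold change was 0.56 ± 0.14 in KO (edgeR adjusted p = 0.00719), called under all alternatives, and 0.40 ± 0.14 in OE (edgeR adjusted p = 0.0457). The call in OE was lost without WT replicate 1 (edgeR adjusted p = 0.154), WT replicate 3 (0.2), OE replicate 2 (0.157) or KO replicate 1 (0.0552), 2 (0.0721) or 3 (0.0525). Between OE and KO it did not pass (-0.16 ± 0.13, edgeR adjusted p = 0.348), but with an offset for gene length it did (-0.35, edgeR adjusted p = 0.0223). The pseudogenes FDX1P1 and FDX1P2 had at most 2 counts in any library.

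FDXR (ENSG00000161513, chromosome 17, 74862497 to 74873031), the flavoprotein that charges FDX1 from NADPH, rose in OE and not measurably in KO. It had 374.7, 387.4 and 286.7 CPM in WT, 457.6, 411.8 and 316.4 CPM in KO, and 501.7, 713.6 and 494.1 CPM in OE. All OE libraries were above all others, while KO overlapped WT. The log2 fold change was 0.70 ± 0.16 in OE (edgeR adjusted p = 0.00751) and 0.18 ± 0.16 in KO (edgeR adjusted p = 0.509, 95% interval -0.17 to 0.52). OE exceeded KO by 0.53 ± 0.16 (edgeR adjusted p = 0.0167), a call lost without KO replicate 3 (0.39, edgeR adjusted p = 0.0968) or OE replicate 2 (0.35, edgeR adjusted p = 0.0747). Within groups its SD was 15.7% of the mean in WT, 18.2% in KO and 21.9% in OE.

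Across the 9 libraries the 7 genes did not vary as a block. CYP11A1 and FDXR went together (Pearson r of log2 CPM 0.97), as did STARD3 with each of them (r = 0.93), and STAR went with FDX1 (r = 0.80) but hardly with CYP11A1 (r = 0.27) or FDXR (r = 0.19). These are descriptions over 9 libraries that share 3 groups and a common scaling. Within OE, replicate 2 was the highest library for CYP11A1, FDXR, FDX1, SCARB1 and STARD3, whereas for STAR it had 393.7 CPM beside 393.2 CPM in replicate 1.

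**Figure D3:**
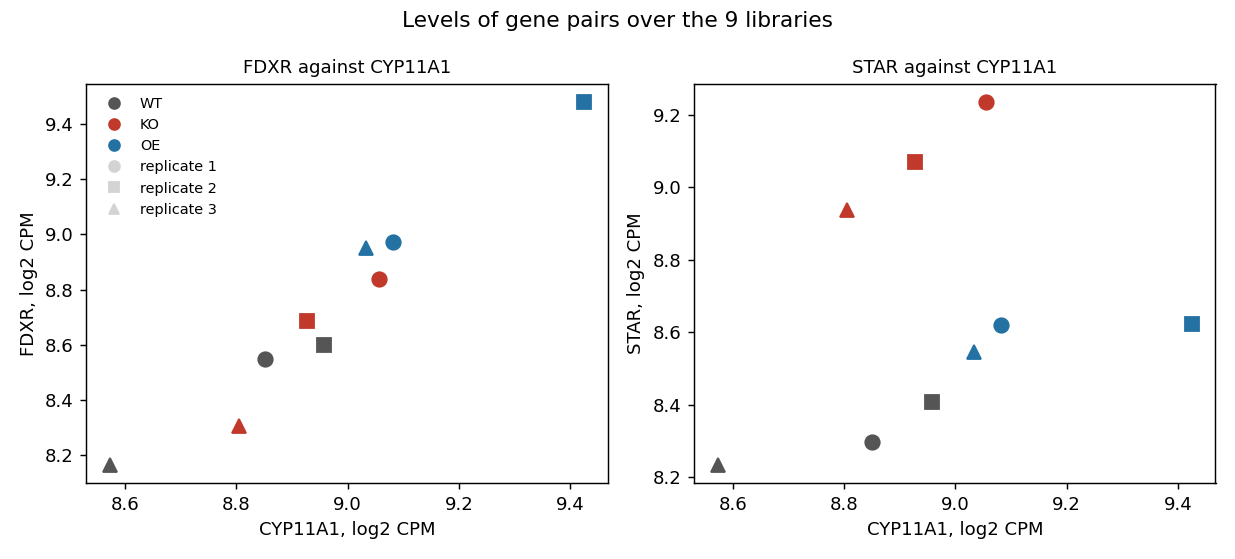
Log2 CPM of FDXR (left) and STAR (right) on the vertical axis against CYP11A1 on the horizontal axis, 1 point per library, coloured by group with symbols for the replicates. FDXR rises with CYP11A1 through all groups (r = 0.97), while the KO libraries lie above the others for STAR at a like CYP11A1 level.

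Ratios of gene pairs within a library do not depend on scaling between libraries. Counts per length of STAR were 0.521, 0.522 and 0.604 times those of CYP11A1 in WT, 0.866, 0.844 and 0.837 times in KO, and 0.555, 0.438 and 0.545 times in OE. The KO ratio was above both other groups in every library, by 0.63 on the log2 scale against WT, and OE overlapped WT (difference -0.10, exact permutation p = 0.6). FDX1 per CYP11A1 was 0.364 to 0.418 in WT, 0.47 to 0.61 in KO and 0.393 to 0.402 in OE, so it was higher in KO by 0.44 on the log2 scale and differed by 0.01 between OE and WT (exact permutation p = 1).

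The ratio of the 2 electron carriers separated the libraries by group, though KO and WT nearly met (0.58 in KO replicate 1 against 0.568 in WT). The WT libraries had 0.475, 0.568 and 0.568 times as much FDX1 as FDXR per length, the KO libraries 0.58, 0.667 and 0.913 times, and the OE libraries 0.45, 0.408 and 0.451 times. The 3 groups did not overlap, with differences of 0.40 for KO and -0.30 for OE against WT on the log2 scale. Without KO replicate 3 the difference for KO was 0.22. STAR per STARD3 was 5.83 to 6.91 in WT, 8.42 to 9.33 in KO and 5.06 to 6.05 in OE, higher in KO by 0.49. Of the 12 differences of these 4 ratios, 9 had no overlap between the groups and an exact two-sided permutation p of 0.1, the smallest that 3 against 3 allows. It is 0.136 after adjustment over the 15 tests run, so none can pass 0.05 in this design. How often ratios of other gene pairs lack overlap was not computed. For single genes the share was 35.2% in KO and 36.4% in OE against WT, and 51.7% between OE and KO.

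**Figure D4:**
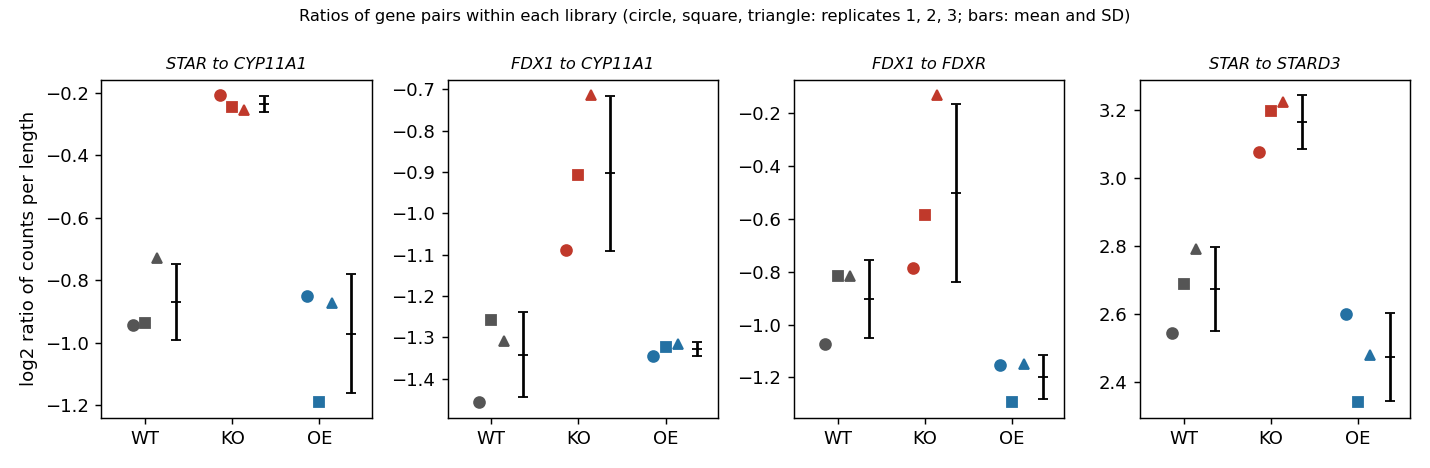
Log2 ratio of counts per length (vertical axis, own scale per panel) for 4 gene pairs in each library, with mean and SD (n = 3) in black. STAR to CYP11A1 and STAR to STARD3 are highest in the 3 KO libraries, and FDX1 to FDXR is lowest in the 3 OE libraries.

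Neighbouring genes on the chromosome were compared with the genes called. Over the 50 tested genes around each, the median log2 fold change in KO was 0.09 near STAR, 0.03 near SCARB1 and 0.03 near FDX1, and the median in OE was -0.05 near SCARB1, 0.10 near FDXR, 0.02 near CYP11A1, -0.13 near FDX1 and -0.01 near STARD3. Each was thus smaller than the change of the gene itself. Of the 50 neighbours of SCARB1, 3 rose at least as much in KO and 2 in OE. For STAR 6 of 50 did so in KO and for FDX1 7 of 50. In OE it was 4 of 50 for FDXR, 5 for CYP11A1, 8 for FDX1 and 8 for STARD3.

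Among 7606 other genes with at least 20 CPM on average, the levels most like those of STAR over the 9 libraries were those of SRPX (r = 0.984; 33.9, 54.0 and 39.5 CPM in WT, KO and OE) and PIGC (r = 0.975). For CYP11A1 they were MICA (r = 0.994) and ATG101 (r = 0.991), for FDXR SLC25A39 (r = 0.994) and LYPLA2 (r = 0.992), and for FDX1 SUB1 (r = 0.993) and SPINK6 (r = 0.972). SLC25A39, a mitochondrial carrier for glutathione, had 358, 399 and 601 CPM in WT, KO and OE. For SCARB1 they were TAGLN2 (r = 0.979) and CD82 (r = 0.976). STARD3 was most like RPIA (r = 0.986) and POR (r = 0.979), and POR is the reductase that feeds the P450 enzymes of the endoplasmic reticulum (548, 690 and 791 CPM). TSPO was closest to HOGA1 (r = 0.901) and RPA2 (r = 0.869). They are the 2 highest for each gene of 7606 correlations (7607 for TSPO) over libraries that share 3 groups.

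The rest of the pathway was followed in 6 lists of 72 genes, 62 of them tested. In KO 15 were higher and 3 lower than in WT, with a median log2 fold change of 0.08. In OE 12 were higher and 6 lower, with a median of 0.04, but with library totals alone 7 were higher and 9 lower, and with the length offset 17 were higher and 4 lower. Of all genes, 18.8% were called in KO and 20.7% in OE. Cholesterol supply had 5 higher and 1 lower of 13 tested in KO but 0 higher and 3 lower in OE, and the partners of mitochondrial import had 1 higher of 13 in KO but 7 higher and none lower in OE. Without WT replicate 1 or WT replicate 3 the number of the 62 called in OE was 7 (5 higher and 2 lower). Without OE replicate 2 it was 9 (7 higher and 2 lower). These counts do not say which genes kept their call, so the rises and falls in OE named below may depend on a single library. Their dependence on gene length was not tested gene by gene. Over all genes, OE against WT changed by -0.16 on the log2 scale per doubling of length. Gene by gene, the difference between the lines was tested in OE against KO, where supply had 2 higher and 8 lower and the import partners 5 higher and 1 lower, each of 13. With 39.7% of all genes called in that comparison, the count for the import partners is near the background.

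Supply genes that rose in KO included SOAT1, which esterifies cholesterol for storage (1.82 ± 0.11, edgeR adjusted p = 1.72e-08, with a median of 0.81 over its neighbours), and NCEH1, a hydrolase of such esters, from 32.5 to 59.3 CPM (0.87 ± 0.17, edgeR adjusted p = 0.00144). APOE rose from 1.48 to 12.4 CPM. Among sterol carriers, GRAMD1B, which moves cholesterol from the plasma membrane to the endoplasmic reticulum, rose from 93.5 ± 14.5 to 256 ± 12.8 CPM in KO (1.45 ± 0.13, edgeR adjusted p = 9.62e-07), and STARD4, a soluble relative of STAR, rose from 83.5 to 147 CPM (0.81 ± 0.15, edgeR adjusted p = 0.00095). None of 10 carriers passed in OE. GRAMD1B (-1.35), STARD4 (-0.82) and OSBP (-0.40) were lower in OE than in KO, and STARD3NL, a relative of STARD3 without its lipid-binding part, was higher (0.50 ± 0.12, edgeR adjusted p = 0.00416). In OE, LRP1 (-2.16 ± 0.27), CD36 (-0.40) and NPC1 (-0.41), the endosomal cholesterol exporter, fell against WT. The WT libraries were widely spread for LRP1 (40.2 ± 14.2 CPM, against 8.95 ± 2.79 CPM in OE). LRP1 also fell in KO (-1.01 ± 0.25, edgeR adjusted p = 0.00889).

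The import list was the one with most rises in OE. DBI, a ligand of TSPO, rose from 95.5 to 145 CPM (0.60 ± 0.12, edgeR adjusted p = 0.00294), ATAD3A by 0.76 ± 0.18, the import receptor TOMM22 by 0.59 ± 0.16 and the channel VDAC3 by 0.44 ± 0.12. In KO, PRKAR1A, a regulatory subunit of protein kinase A, was the member of that list that passed (0.33 ± 0.11, edgeR adjusted p = 0.043). NNT, which makes NADPH in mitochondria, the fuel of FDXR, rose in KO from 320 to 469 CPM (0.55 ± 0.14, edgeR adjusted p = 0.0128). NNT was lower in OE than in KO (-0.77 ± 0.14, edgeR adjusted p = 0.0006). The median over its neighbours was 0.2 in KO against WT and -0.17 in OE against KO. POR and CYB5A, which serve P450 enzymes outside mitochondria, rose in OE by 0.53 ± 0.12 and 0.55 ± 0.15. FDX2, the relative of FDX1 used in iron-sulfur cluster assembly, had too few counts to be tested.

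Of the other mitochondrial P450 enzymes, which also draw on FDX1, CYP27A1 and CYP11B1 were called and had 2 counts in all in 1 group. CYP27A1, the sterol 27-hydroxylase, had 685 counts over the WT libraries, 900 over the OE libraries and 2 over the KO libraries. WT against KO this was a ratio of 362 (95% counting interval 99.8 to 2990). CYP11B1 had 2 counts over WT, 8 over OE and 50 over KO, and KO had 23.7 times as many as WT after scaling (interval 6.22 to 201). Its near copy CYP11B2 makes that level uncertain. Such intervals cover counting error only.

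Of 14 regulators tested, 3 were higher and 1 lower in KO, and 1 was higher and 3 lower in OE, counts near the share of all genes called (18.8% and 20.7%). NR5A1, the steroidogenic nuclear receptor, which falls outside the naming rule and was picked after its values were seen, had 768 ± 61 CPM in WT, 909 ± 91.4 CPM in KO (edgeR adjusted p = 0.16) and 748 ± 88.1 CPM in OE (edgeR adjusted p = 0.847). CREM, a cAMP-responsive factor, rose in both lines (0.38 ± 0.10 in KO, edgeR adjusted p = 0.0156, and 0.41 ± 0.10 in OE, edgeR adjusted p = 0.0117), and SREBF1 fell in both (-1.79 and -1.41). SREBF2, a main activator of cholesterol synthesis genes, rose in KO from 172 to 261 CPM (0.60 ± 0.12, edgeR adjusted p = 0.00249) and was at 138 CPM in OE. NR0B1, a repressor of NR5A1, rose in KO from 4.76 to 15.3 CPM. SP1, which binds GC boxes, fell in OE by 0.53 on the log2 scale, as did NR4A1 by 0.52.

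Downstream of pregnenolone, the lines differed by gene. HSD3B2 rose in both, by 0.88 in KO and 2.90 in OE, and CYP21A2 rose in OE (1.66 ± 0.13) and did not pass in KO (0.16 ± 0.13). OE exceeded KO for CYP21A2 by 1.5 ± 0.13 (edgeR adjusted p = 5.06e-07). SULT2A1 rose in KO by 1.01 ± 0.11 and was lower in OE than in KO (-1.20 ± 0.11). HSD3B2 and CYP21A2 have near copies, so their levels are uncertain.

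**Figure D5:**
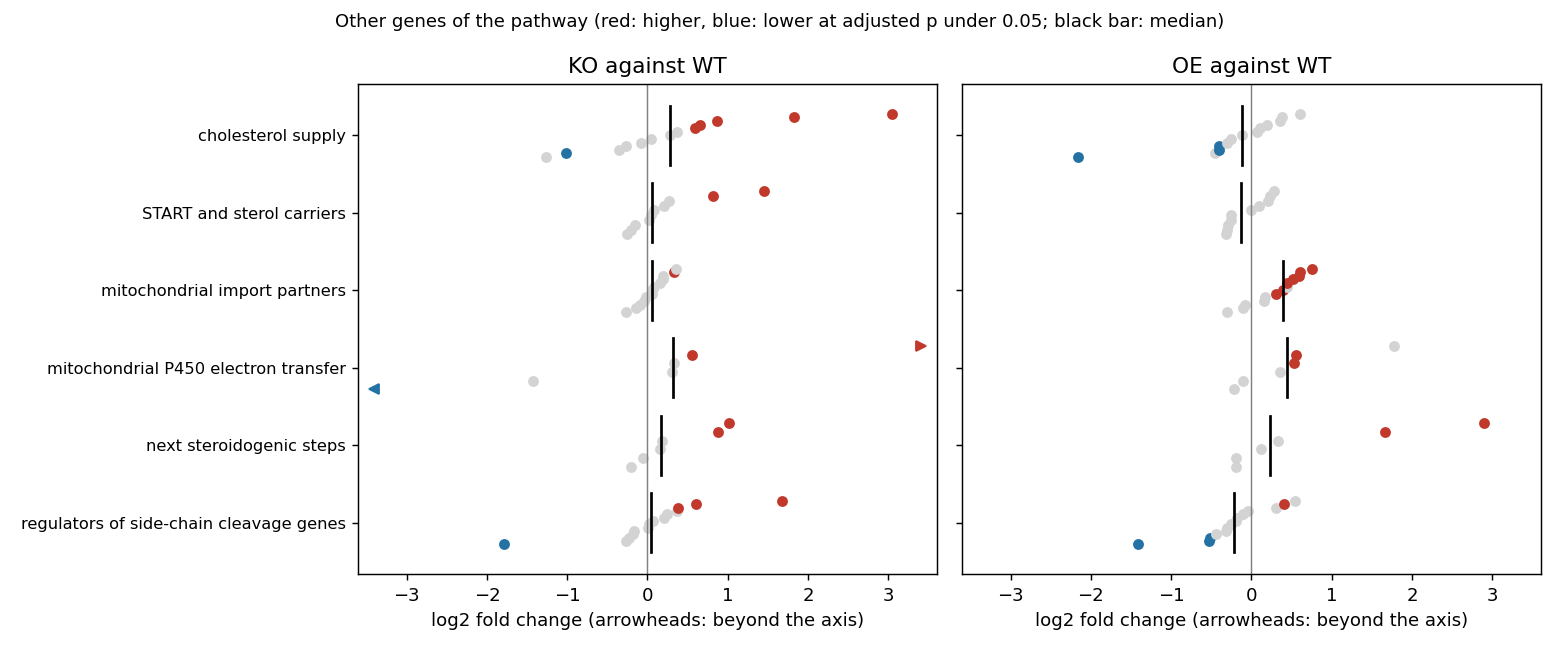
Log2 fold change (horizontal axis) of the tested genes of 6 pathway lists against WT, in KO (left) and OE (right), red where higher and blue where lower at an edgeR adjusted p under 0.05, with the median of each list in black and arrowheads for values beyond the axis. Cholesterol supply holds 5 red points in KO and none in OE, and the mitochondrial import partners hold 1 in KO and 7 in OE.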

How the data were processed

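RNA of H295R cells was measured in 9 poly-A selected libraries, 3 per group by their titles. Read counts for each gene, whole numbers that the authors deposited without normalization, were made with featureCounts 1.5.2 on the Ensembl release 101 annotation of GRCh38, per the file headers. With the options in that header, reads are counted without regard to strand, and a read with several mapped places or several genes is not counted. The submitters' processing notes also name FastQC, HISAT2 1.03, Subread, featureCounts 0.1.0 and DESeq2.

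Genes were kept by filterByExpr (minimum count 10). All 9 libraries entered 1 quasi-likelihood model of edgeR 4.0.16 in R 4.3.3, with group as its term, scaled by TMM, leaving 6 residual degrees of freedom. Benjamini-Hochberg adjustment covered 14150 genes, called under 0.05. CPM are relative to the TMM-scaled total of these genes, values after ± are the SD of a level or the standard error of a log2 fold change, and correlations use log2 CPM with a prior count of 2. Symbols came from a table of gene names. Promoter windows and their build came from RefSeq. Windows on chromosome 8, which holds STAR, were left out when members were matched, although the shares over all windows include them. SCARB1 was not matched, and the other 5 genes were.

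The members and gene lists were chosen with earlier results of these data known. Named are the 7 genes, SGPL1, up to 4 called genes per list and comparison with the smallest adjusted p, both genes of each ratio, and for each member the 2 genes with the highest correlation. 1 gene that the rule names, with its ratio, is not reported here. Alternatives were DESeq2 1.42.0, limma-voom (limma 3.58.1), other scalings and filters, the 2 groups alone, a replicate block, an offset for gene length and leaving out libraries.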

Additional observations from a re-analysis of the deposited data

How the results depend on the processing

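Over 438 recalculated log2 fold changes of the 7 genes, 406 kept their side of the threshold, 22 lost their call, 10 gained one and 0 called values changed sign. TSPO was not tested with a minimum count of 50. The number of members called in OE against WT was 5, with 2 under library totals alone, 3 with the 2 groups alone, and 2 to 6 with 1 library left out. In OE against KO it was 2, with 4 under the length offset, 4 under the replicate block with length offset, and 1 to 2 with 1 library left out. In KO against WT it was 3 throughout. With 1 library left out, all genes called ran from 1764 to 3214 in KO against WT and from 1244 to 3673 in OE against WT, and pathway genes called in OE against WT from 7 to 22. The share of higher genes among calls in OE against WT was 46.7%, 25.9% with library totals alone and 62% with the length offset. The cause of these differences was not tested.

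Same-numbered libraries of different groups had correlated deviations of -0.14 to 0.25, those of different numbers -0.28 to 0.22, so the numbers were not taken to pair the libraries, although those numbered 3 had 0.13 to 0.17. The highest value of all was that of WT replicate 2 with OE replicate 2 (0.25), which share a number. KO replicate 1 correlated best with OE replicate 2 (0.22), which has another number. With the replicate block, 3235, 3757 and 6135 genes were called in KO against WT, OE against WT and OE against KO, beside 2655, 2924 and 5612 without it, and STAR passed in OE against WT (adjusted p = 0.0379). STAR also passed there with the length offset (0.0415). FDX1 did not pass there with the length offset (0.0513), and CYP11A1 and FDX1 did not with the 2 groups alone (0.0766 and 0.0821). TSPO had 16 to 42 counts per library, so counting error limits it, beside the spread between libraries.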
